A study of Sus scrofa with 57 samples.

Results

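De novo lipogenesis is the synthesis of fatty acids from carbohydrate carbon. ATP citrate lyase (ACLY) and acyl-CoA synthetase short chain 2 (ACSS2) make cytosolic acetyl-CoA, acetyl-CoA carboxylase (ACACA) turns it into malonyl-CoA, and fatty acid synthase (FASN) builds palmitate with NADPH that malic enzyme (ME1) helps to supply. ELOVL6 lengthens the product, GPAT starts its esterification to glycerol, and the transcription factors SREBP-1 (gene SREBF1) and ChREBP (gene MLXIPL) switch the pathway on in response to insulin and glucose. In pigs, fat is the main site of this synthesis, whereas in humans the liver carries much of it. PNPLA3, a lipid hydrolase that is known as a target of the same transcription factors, was counted with the pathway.

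The members were 10 gene symbols, matched to gene names in the RNAseq tables, of 25285 gene loci in all. A locus was found for 9 of the 10, 8 by name and PNPLA3 by its gene identifier. SREBF1 itself was not analysed here because no locus carried that name or its identifier. ACACA and FASN had 2 loci each, so that 11 loci were described. MLXIPL is written CHREBP and GPAM is written GPAT in the tables, and these spellings are kept.

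Mature adipocytes were floated out of collagenase-digested retroperitoneal fat of F2 pigs from a cross of Duroc and Göttingen minipigs, and no treatment was given. Pigs were from the lean and obese extremes of that cross, with free access to food, and individual ages are not in the labels. By the study's account plasma was taken from fasted pigs, and whether the pigs were fed or fasted when the fat was removed is not stated. RNAseq covered 5 lean and 5 obese males in 11 libraries, since the titles give obese pig-572 a second library whose description carries a neighbouring number. DNA methylation was measured by capture of methylated fragments (mDNAcap) and by reduced representation bisulfite sequencing (RRBS). By the labels, 10 lean and 13 obese pigs were used, and by the study's account both sexes were. The study counts the lean and obese animals otherwise, so the groups behind the RRBS means may differ from the labels. The deposited capture comparison holds 11 libraries of each group. It lists pig-411 with the lean libraries although that pig is labelled obese, and its counts are not named by animal.

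RNA levels are FPKM, fragment counts per unit of transcript length and of sequencing output, scaled between libraries and averaged over the libraries of pig-572. Each library had between 8945 and 10287 genes at an FPKM of at least 1, and the read depth of a library is unknown. All 11 loci were among the 10170 gene loci with a mean scaled FPKM of at least 1 that were compared by limma on log2(scaled FPKM + 1), which understates the fold change of low genes. Of these 10170 loci, 0.00983% passed an adjusted p of 0.05, which is 1 locus, C10ORF46, a gene outside the pathway. Adipocyte markers were present in every pig, with a summed level of 1379 to 1701 FPKM in lean and 1387 to 1703 FPKM in obese pigs over the 8 markers with a locus.

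The enzymes of fatty acid synthesis were among the most abundant transcripts of these cells, while PNPLA3, CHREBP and GPAT were lower. ELOVL6 had the highest mean level over the 10 pigs, 2802 FPKM, and only 0.403% of the loci compared had a higher one. ACLY followed at 1278 FPKM, the FASN long locus at 1076 FPKM and ME1 at 648 FPKM. The ACACA long locus stood at 194 FPKM and ACSS2 at 156 FPKM. PNPLA3 at 17.6 FPKM, CHREBP at 9.47 FPKM and GPAT at 3.49 FPKM came last, with 21.2%, 33.8% and 62.7% of all loci above them. ELOVL6 exceeded ACLY in 10 of 10 pigs, whereas ACLY exceeded the FASN long locus in 6 of 10 pigs, with a ratio from 0.496 to 2.58. The FASN short locus lay above ME1 in 7 of 10 pigs and PNPLA3 above CHREBP in 7 of 10 pigs, so the order of these neighbours was not fixed across pigs. ACSS2 was 10.9 times PNPLA3 as a geometric mean, the widest step in the order.

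**Figure D1:**
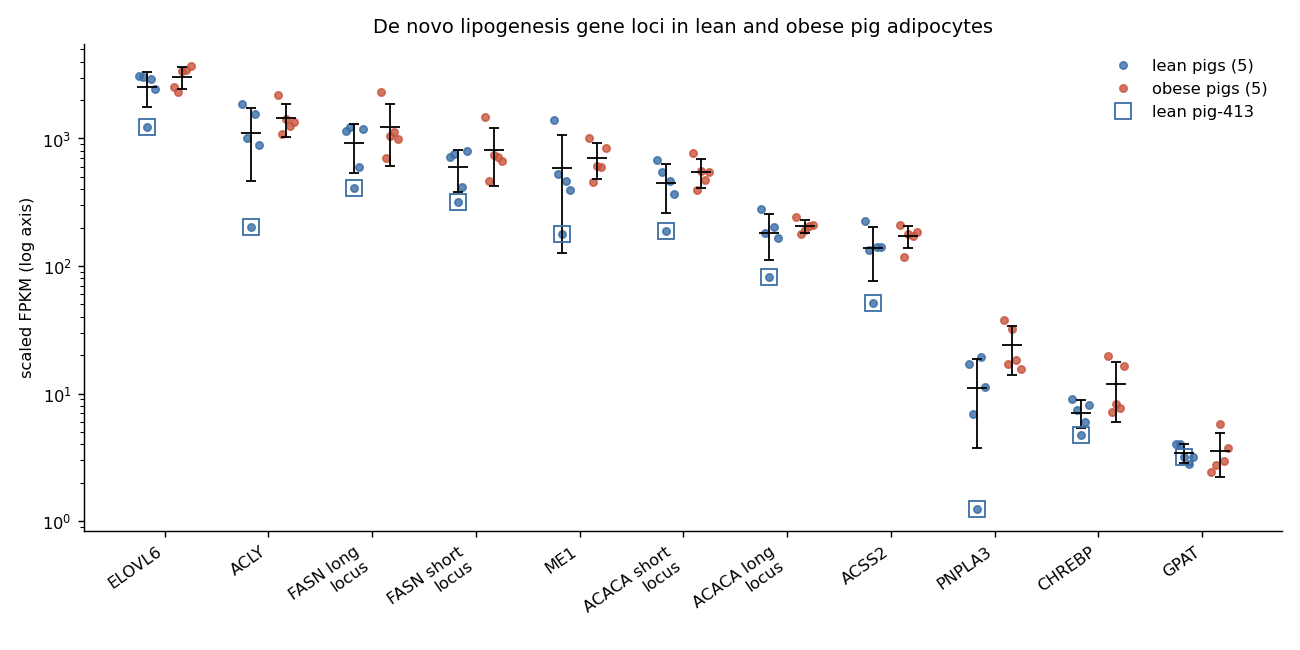
Scaled FPKM of the 11 loci on a log axis, with a point for each pig, lean in blue and obese in red, and a bar for the mean and SD of the 5 pigs of a group. Lean pig-413, marked by a square, is the lowest point of 10 loci, and the groups overlap at every locus.

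None of the 11 loci differed between lean and obese pigs at an adjusted p of 0.05 in limma, and the smallest adjusted p was 0.219, for PNPLA3. The mean of the log2 values was higher in obese pigs at 11 of 11 loci, whereas it was higher at 50.7% of all loci compared. For GPAT that difference was 0.00 on the log2 scale and its sign turned under 4 other settings of scaling, pseudocount or library choice, and with 5 of the pigs left out in turn. The median log2 fold change of the 11 loci was 0.43 beside 0.01 over all loci. At an unadjusted p of 0.05, 1 of the 11 loci was called, PNPLA3 with a higher level in obese pigs, and 20.6% of all loci were called in either direction. The lean and obese ranges did not overlap, with the obese pigs higher, at 0 of the 11 loci and at 2.45% of all loci.

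The differences between groups rested in large part on lean pig-413. This pig had the lowest level of the 10 pigs at 10 of the 11 loci, and at 16.6% of all loci compared. It was also the highest pig at 18.6% of all loci, more than any other pig. Without it, the log2 fold change of the ACACA long locus fell from 0.27 to 0.01 and that of ACLY from 0.69 to 0.16. Those of ACSS2, ELOVL6 and ME1 became 0.11, 0.08 and 0.16, and those of the FASN long and short loci 0.18 and 0.21. PNPLA3 fell from 1.31 to 0.78 and CHREBP from 0.59 to 0.47, with adjusted p of 0.352 and 0.481 in limma without that pig.

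Markers of other cell types were compared in pig-413 as well. Its summed levels were the lowest of the lean pigs for macrophages and leukocytes (8.36 FPKM, up to 20.3 FPKM in the others), endothelial cells (1.59, up to 14.1), fibroblasts and preadipocytes (278, up to 830), muscle (4.71, up to 9.69) and red blood cells (15.5, up to 98.9). Its adipocyte sum of 1586 FPKM lay inside the range of the other pigs, but the sum hides single markers that went opposite ways. Pig-413 was the lowest pig at 1 of the 8 adipocyte loci, LEP, with 7.30 FPKM. PCK1 had 84.0 FPKM in it, beside a mean of 19.8 FPKM in lean pigs, this one included, and 1.89 FPKM in obese pigs. Obese pigs had 10.9 to 22.2 FPKM over the 15 leukocyte loci, 277 to 663 over the 15 fibroblast loci, 3.71 to 10.8 over the 8 endothelial loci, 8.06 to 11.6 over the 9 muscle loci and 20.7 to 49.6 over the 6 red cell loci. The 6 mesothelial markers summed to 0.379 to 0.802 FPKM in lean and 0.359 to 1.18 FPKM in obese pigs, and pig-413 was the highest of the lean ones. The leukocyte markers CD163 and MARCO, the preadipocyte marker DLK1, the mesothelial marker UPK3B, the muscle markers CNN1, DES and MYH1 and the red cell marker SLC4A1 stayed below 0.05 FPKM in every pig. The part of other cells in the members' levels was not tested.

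**Figure D2:**
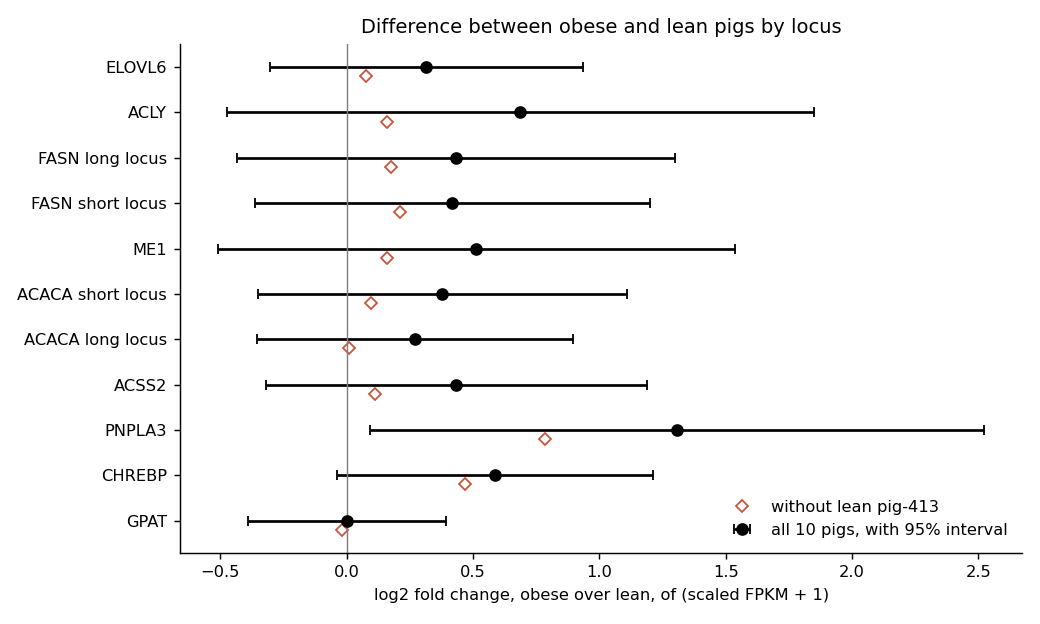
Log2 fold change of obese over lean pigs for each locus with its 95% interval from limma (black), and the same without lean pig-413 (open red diamonds). The interval excludes 0 only for PNPLA3, before adjustment over all loci, and 8 loci lie between 0.01 and 0.21 without that pig.

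ACLY, which cleaves exported citrate into acetyl-CoA, varied most among the abundant members. The lean pigs had 1849.8, 1003, 203, 1555 and 887 FPKM, and the obese pigs 2175, 1082, 1420.0, 1259.8 and 1345 FPKM, in the order pig-402, pig-407, pig-413, pig-525 and pig-577 for lean and pig-433, pig-473, pig-524, pig-529 and pig-572 for obese, which is kept below. Lean pig-413 lay far under the others and obese pig-433 on top, and the remaining values overlapped. The log2 fold change was 0.69 ± 0.52 (SE; limma adjusted p = 0.474; exact permutation p = 0.294), with a 95% interval from 0.720-fold to 3.60-fold. The spread of ACLY within the groups, an SD of 0.93 on the log2 scale, was exceeded by 3.31% of all loci.

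ACSS2, which makes acetyl-CoA from acetate, had 226, 135, 51.0, 141 and 141 FPKM in lean and 208, 118, 179, 173 and 186 FPKM in obese pigs. The highest and the lowest value were both in lean pigs. Its log2 fold change of 0.43 ± 0.34 (SE) did not pass limma (adjusted p = 0.488) and had an exact permutation p of 0.286.

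ME1, the cytosolic malic enzyme, had 1388, 530.5, 178, 465 and 395 FPKM in lean and 1015, 459, 605, 599 and 847 FPKM in obese pigs. Lean pig-402 was the highest of all pigs and lean pig-413 the lowest, a 7.79-fold range inside 1 group. The log2 fold change was 0.51 ± 0.46 (SE; limma adjusted p = 0.542; exact permutation p = 0.373). Without pig-402 it was 0.90, with an adjusted p of 0.147 in limma.

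ACACA, which commits acetyl-CoA to fatty acid synthesis, was split into a long locus (chromosome 12, 40200509 to 40367985, Sscrofa10.2) and a short one of 225 bases that starts 1517 bases beyond its end. The long locus had 282, 182, 81.3, 202 and 166 FPKM in lean and 243, 177, 193, 208 and 209 FPKM in obese pigs. The lean values spanned the obese ones on both sides. The log2 fold change was 0.27 ± 0.28 (SE; limma adjusted p = 0.606) for the long locus and 0.38 ± 0.33 (SE; limma adjusted p = 0.529) for the short one. The short locus had 2.44 ± 0.32 times the FPKM of the long one in lean pigs and 2.64 ± 0.42 times in obese pigs (SD, n = 5 each). A level per length on 225 bases is sensitive to the fragment length, and cufflinks gave it bounds of up to 9.53% around its value, beside 1.10% for the long locus.

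FASN, the multienzyme that assembles palmitate, had a long locus (chromosome 12, 1023477 to 1034681) and a short one (1048559 to 1052166) with 13877 bases between them. The long locus had 1155, 1233, 410.6, 602 and 1188 FPKM in lean and 2315, 698, 1038, 1131 and 993 FPKM in obese pigs. Obese pig-433 stood alone on top, and the other 4 obese pigs lay within the lean range. The short locus followed the long one, at 0.673 ± 0.064 times its FPKM in lean and 0.665 ± 0.032 times in obese pigs (SD, n = 5 each), and the Pearson r between them was 0.99 over the 10 pigs. The log2 fold change was 0.43 ± 0.39 (SE; limma adjusted p = 0.544; exact permutation p = 0.405) for the long locus, and 0.18 without pig-433. FASN was the member at which the libraries of pig-572 differed most, with 831 and 1154 FPKM at the long locus and 514 and 821 FPKM at the short one. The ratio of the second to the first library was 1.39 and 1.60 there, and between 0.867 and 1.03 at the other 9 loci.

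ELOVL6, which extends palmitate to stearate, had 3069.7, 3056, 1241, 2926 and 2425 FPKM in lean and 2530.3, 2302, 3353, 3421 and 3692 FPKM in obese pigs. Obese pig-524, pig-529 and pig-572 lay above every lean pig, and the other obese pigs lay below at least 3 lean ones. Between the groups, the log2 fold change was 0.32 ± 0.28 (SE; limma adjusted p = 0.534; exact permutation p = 0.341).

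PNPLA3 had 17.2, 6.85, 1.24, 19.2 and 11.2 FPKM in lean and 37.5, 16.99, 32.0, 18.2 and 15.5 FPKM in obese pigs. Obese pig-433 and pig-524 lay above every lean pig, and all 5 obese pigs lay above the lean median, while the ranges overlapped. Its log2 fold change of 1.31 ± 0.55 (SE) was the largest of the members, with a 95% interval from 1.06-fold to 5.75-fold, an unadjusted limma p of 0.0376 and an adjusted p of 0.219. The exact permutation p was 0.0714, where 0.00794 is the smallest that 5 pigs against 5 allow. In lean pig-413 the cufflinks bounds were 22.9% around the value, so the lowest PNPLA3 level was also the least precise one.

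CHREBP, the glucose-responsive activator of lipogenic genes, had 9.13, 7.48, 4.73, 5.98 and 8.09 FPKM in lean and 19.8, 7.11, 8.33, 7.69 and 16.4 FPKM in obese pigs. Obese pig-433 and pig-572 had the highest levels, well above every lean pig, and the other 3 obese pigs lay inside the lean range. Obese over lean, the log2 fold change was 0.59 ± 0.28 (SE; unadjusted limma p = 0.0639; adjusted p = 0.265; exact permutation p = 0.135). Without pig-433 it was 0.38, with an adjusted p of 0.400 in limma. Both libraries of pig-572 gave the high value, 16.1 and 16.6 FPKM.

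GPAT, the mitochondrial acyltransferase of the first esterification step, had 4.03, 3.99, 3.18, 2.78 and 3.17 FPKM in lean and 2.42, 2.77, 5.79, 2.98 and 3.76 FPKM in obese pigs. The highest and the lowest level were both in obese pigs, and pig-433, the top pig of 6 other loci, was the lowest here. The log2 fold change was 0.00 ± 0.18 (SE; limma adjusted p = 0.997), with a 95% interval from 0.764-fold to 1.31-fold. A larger spread within the groups was found at 30.4% of all loci, beside 2.86% to 14.7% for the other members.

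The levels of most members were correlated from pig to pig, with GPAT apart when all 10 pigs were used. Over 10 pigs, 27 of the 53 pairs of loci of different genes had a Pearson correlation with an adjusted permutation p under 0.05, and 13 had a Spearman correlation that did, with adjustment over all 55 pairs. A Pearson r of at least 0.7, a limit chosen after the values were seen, was found in 31 of the 53 pairs and in 4.21% of all pairs of the 10170 loci. The median r was 0.78 over the 43 pairs of different genes without GPAT and 0.06 over the 10 pairs with GPAT, none of which passed. Acetyl-CoA enzymes and carboxylase were the closest. ACLY and the ACACA long locus had r = 0.97 and rho = 0.88 (adjusted permutation p = 0.00128 and 0.0125), and r was 0.93 without the 2 pigs farthest from the ACACA median. ACSS2 and ME1 had r = 0.93 and rho = 0.94 (adjusted permutation p = 0.00055 and 0.00407), and 0.86 without the 2 farthest pigs.

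FASN was less close to ACLY. Their r was 0.70 and their rho 0.26 (adjusted permutation p = 0.0575 and 0.614), and r was -0.22 without pig-413 and pig-433. CHREBP was closest by r to the FASN short locus, with r = 0.79 and rho = 0.64 (adjusted permutation p = 0.0252 and 0.129). That r fell to 0.38 without those pigs. By rho CHREBP was closest to ACSS2, with rho = 0.87 and r = 0.69 (adjusted permutation p = 0.0154 and 0.0575). CHREBP and ME1 had r = 0.73 and rho = 0.83 (adjusted permutation p = 0.0396 and 0.0178). Without pig-402 and pig-413, the r of CHREBP was 0.77 with ACSS2 and 0.90 with ME1. With the ACACA short locus it fell from 0.72 to 0.38 without pig-413 and pig-433. Over the 43 pairs the median r was 0.49 without the 2 farthest pigs and 0.51 without pig-413, so that part of the shared pattern rested on these pigs. Over the 10 pairs with GPAT it was 0.37 and -0.03, so how far GPAT stood apart depended on the pigs left out. The pairs share libraries, and lean and obese pigs were pooled.

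**Figure D3:**
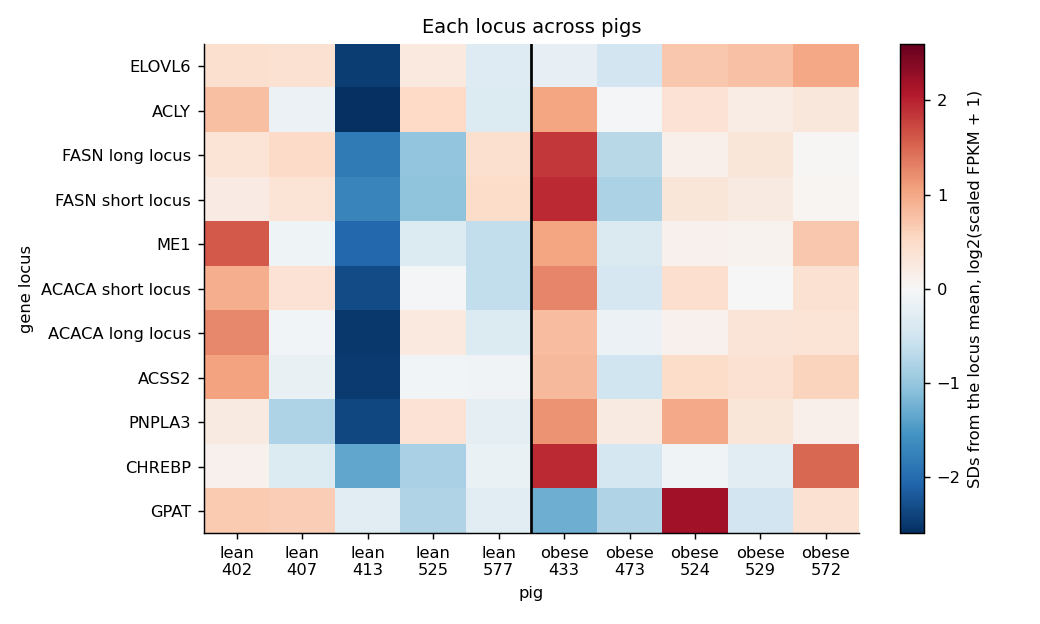
Level of each locus (rows) in each pig (columns, lean left of the line), in SDs from the locus mean of log2(scaled FPKM + 1). Pig-413 has the lowest value at 10 loci, pig-433 and pig-402 are mostly red, and the GPAT row follows another order, with obese pig-524 highest.

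Among the non-member genes most like the mean standardised level of the 11 loci, out of 8431 with a symbol, were ACTN4 (Pearson r 0.96), an actin cross-linker, COL5A1 (0.96), a collagen chain, PPARD (0.94), a nuclear receptor for fatty acids, and a locus named ADD1 (0.94). These are descriptions over 10 pigs, chosen for their likeness, and r was 0.84 to 0.90 for these 4 without pig-413.

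The symbol ADD1 belongs to alpha-adducin and is also listed in RefSeq as a synonym of pig SREBF1. The tables hold 2 loci of that name, and which gene the second one is cannot be told from the files. The first, on chromosome 8, is ADD1 by its identifier in the reference list of names. It had 9.87 ± 1.56 FPKM in lean and 10.9 ± 1.12 FPKM in obese pigs (SD, n = 5 each). The second, of 3321 bases on the unplaced sequence GL896203.1, has no name in that list and is the one that followed the members more closely. Its Pearson r with the member mean was 0.94, beside 0.70 for the locus on chromosome 8. It had 13.2, 8.08, 2.87, 8.82 and 8.46 FPKM in lean and 22.8, 8.42, 15.2, 7.62 and 12.5 FPKM in obese pigs. Pig-413 was the lowest and pig-433 the highest, as at FASN and ACLY. The same 2 pigs were the lowest (8.61 FPKM) and the highest (12.5 FPKM) at the locus on chromosome 8. The log2 fold change of the second locus was 0.64 ± 0.36 (SE; limma adjusted p = 0.334; exact permutation p = 0.206), and 0.35 without pig-413.

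The surrounding pathway was described by 7 lists, in which 71 loci other than the members were compared. None passed an adjusted p of 0.05 in limma. At an unadjusted p of 0.05 in limma, 12 were higher and 3 lower in obese pigs, which together is close to the 20.6% of all loci. By direction, 1123 of the 10170 loci were higher and 967 lower at that p, a more even split. The median log2 fold change of the 71 loci was 0.04. Pig-413 was the lowest pig at 26 of the 71 loci.

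Genes of acetyl-CoA and citrate supply split into 6 higher and 8 lower, with a median log2 fold change of -0.02. Pig-413 was the lowest pig at 9 of these 14 loci. DLAT, a pyruvate dehydrogenase subunit, had 48.0 ± 24.6 FPKM in lean and 57.2 ± 10.9 FPKM in obese pigs, and DLD, the shared E3 subunit, 82.5 ± 17.2 and 66.0 ± 8.28 FPKM (SD, n = 5 each). Neither passed the test (limma adjusted p = 0.524 and 0.321).

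Of the 10 loci of NADPH supply, 7 were higher and 3 lower, with a median log2 fold change of 0.10. PGD, an NADPH-forming enzyme of the pentose phosphate route, had 109 ± 33.8 FPKM in lean and 154 ± 8.01 FPKM in obese pigs, and RPIA, a ribose isomerase, 23.5 ± 9.69 and 16.8 ± 1.54 FPKM (SD, n = 5 each). Their adjusted p in limma were 0.197 and 0.320. PGD was lowest in pig-413 (61.3 FPKM), and the 40.0 FPKM of RPIA in that pig lay above the lean mean.

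Of the 8 loci of elongation and desaturation that were compared, 5 were higher and 3 lower, with a median log2 fold change of 0.10. HACD2, a dehydratase of the elongation cycle, had a log2 fold change of 0.44 ± 0.16 (SE; limma adjusted p = 0.189), and ELOVL7, another elongase, of -0.25 ± 0.12 (SE; limma adjusted p = 0.275). SCD, the main desaturase of newly made stearate, could not be compared because its estimate is marked as failed in 10 of the 11 libraries.

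Among the regulators of SREBP-1 and ChREBP, 11 of 13 loci had the higher mean in obese pigs, beside 50.7% of all loci, with a median log2 fold change of 0.16. None of the 13 passed the adjusted test. The lowest unadjusted p in the 7 pathway lists, 0.00143, was that of NR1H2 (LXR beta, a sterol receptor that acts on SREBF1). It had 8.42 ± 0.958 FPKM in lean and 11.2 ± 0.332 FPKM in obese pigs (SD, n = 5 each; limma adjusted p = 0.104). Its relative NR1H3 (LXR alpha) had 10.8 ± 2.32 FPKM and 8.58 ± 0.959 FPKM (SD, n = 5 each; limma adjusted p = 0.288).

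Genes that control malonyl-CoA, mostly subunits of AMP-activated kinase, which inhibits ACACA, split into 5 higher and 5 lower, with a median log2 fold change of 0.03. The catalytic subunit PRKAA2 had a log2 fold change of 0.49 ± 0.15 (SE; limma adjusted p = 0.147) and the regulatory subunit PRKAG1 one of -0.56 ± 0.14 (SE; limma adjusted p = 0.120). Acyl-CoA activation and esterification split into 6 higher and 6 lower, with a median of 0.03, and GPAT as a member was left out of this list. MOGAT2, a monoacylglycerol acyltransferase, had a log2 fold change of 0.84 ± 0.28 (SE; limma adjusted p = 0.163) from a lean mean of 0.404 FPKM, and ACSL3, a long-chain acyl-CoA synthetase, one of -0.55 ± 0.18 (SE; limma adjusted p = 0.162). In the PNPLA family, 1 locus was higher and 3 were lower, with a median of -0.01. PNPLA6 had a log2 fold change of 0.24 (limma adjusted p = 0.249) and PNPLA4 one of -0.06 (limma adjusted p = 0.757), beside the 1.31 of PNPLA3.

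Methylation near the members was read from the deposited regions, which the study had chosen for a difference between the groups. Of the 7401 mDNAcap regions, 4 lay in or within 50000 bases of a member, at 4 of the 9 genes. By locus these were 5 of 11, and 30.1% of all loci compared had such a region. Of these 4 regions, 1 lay inside a member, in GPAT, and no other was within 10000 bases of one.

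All 4 had lower normalized counts in obese pigs. The GPAT region (chr14:133482001-133483000) had a lowest, median and highest count of 8.07, 16.2 and 22.5 in the 11 lean libraries, and of 4.09, 10.5 and 14.7 in the 11 obese libraries. All 11 obese libraries were below the lean median, and the ranges overlapped. Its log2 fold change was -0.65 ± 0.21 (SE; limma adjusted p = 0.00927, n = 11 each). The region nearest to FASN (chr12:1002601-1003600), 19877 bases below the long locus, had 19.9, 24.8 and 32.3 in lean and 7.33, 17.6 and 29.1 in obese libraries, and 7 of the 11 obese libraries lay below every lean one. Its log2 fold change was -0.59 ± 0.19 (SE; limma adjusted p = 0.00899).

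The region near ACLY (chr12:21069201-21070500) lies inside another gene, TTC25, 12417 bases from ACLY. It had 13.2, 19.9 and 26.9 in lean and 2.44, 10.24 and 22.6 in obese libraries, with a log2 fold change of -0.81 ± 0.27 (SE; limma adjusted p = 0.00959). The region 40949 bases past ACSS2 (chr17:43553701-43554800) had 9.61, 15.4 and 25.8 in lean and 2.91, 9.80 and 13.4 in obese libraries, with a log2 fold change of -0.69 ± 0.22 (SE; limma adjusted p = 0.00883).

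These calls are a description and not independent, because the regions had been selected on the same animals, and 69.0% of the 7401 regions were called lower in obese pigs by limma. That share was 10.9% after the libraries were rescaled by the median of ratios, when more regions were called higher (2125) than lower (807). The median log2 fold change of all 7401 regions was -0.67, and the 4 regions lay between -0.59 and -0.81. With that rescaling, their log2 fold changes were -0.28 to -0.52 and none passed (adjusted p = 0.0799 to 0.143 in limma). The mean read count per bin of the libraries ranged from 0.63 to 7.04 in lean and from 0.44 to 4.10 in obese pigs, and its part in the difference was not tested further than by the settings in the closing section.

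**Figure D4:**
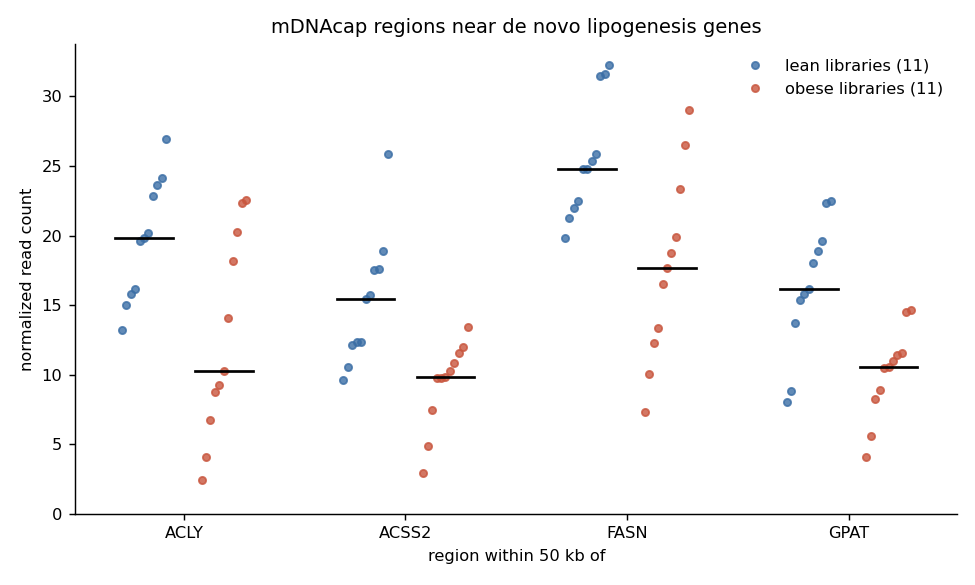
Normalized read count of the 4 mDNAcap regions near members in each of the 11 lean (blue) and 11 obese (red) libraries, sorted within a group, with the median as a bar. The obese median is lower at each region and the ranges overlap at each.

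In RRBS, FASN was the single member with a region within 50000 bases, in both deposited lists. The list that required 5 pigs per group holds 610 regions, and 5.53% of all loci compared had one within that distance. The list that required 3 pigs per group holds 2416 regions, and 17.6% of the loci had one. By locus, 2 of the 11 members had one in either list, both of FASN. The 2 FASN loci shared the same 6 regions of the second list. Of the 10170 loci, 8, or 0.0787%, had 6 or more, a limit taken from FASN itself, and both FASN loci are among these 8. The values used are the 2 group means of a region, with no value per pig and no read depth, and the authors' own p-values were not used, so the differences below are given without an error or a test.

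The region of the first list (chr12:1036196-1036381, 10 CpGs) lies between the FASN loci, 1515 bases beyond the end of the long one. Its mean methylation was 9.89% in lean and 27.1% in obese pigs, a difference of 17.2 points. A larger difference was found at 14.9% of the 610 regions. The study's annotation places FASN on the minus strand, so that this region is on the 5′ side of the long locus, and on the 3′ side of the short one if that has the same strand.

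Inside the long locus, 3 regions of the second list had higher methylation in obese pigs. At chr12:1023785-1024264 (19 CpGs), in the part of the locus farthest from the region above, it was 15.2% in lean and 36.3% in obese pigs. It was 47.1% and 60.2% at chr12:1026884-1027022 (10 CpGs), and 11.2% and 25.1% at chr12:1032356-1032628 (10 CpGs). The difference of 21.2 points at the first of these was exceeded by 9.11% of the 2416 regions.

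Below the locus, where lean methylation was high, 3 regions were lower in obese pigs. Methylation was 73.0% in lean and 61.3% in obese pigs at chr12:1018558-1018649 (19 CpGs), which is 4828 bases from the locus. It was 81.8% and 67.5% at chr12:1015704-1015867 (10 CpGs), and 80.6% and 70.5% at chr12:1013257-1013862 (10 CpGs). Here the regions with the lower lean methylation were the higher ones in obese pigs, and those with the higher lean methylation the lower ones. Regions were listed for a difference between the groups, so one with little lean methylation had little room to be lower in obese pigs. How often this pattern holds over all listed regions was not counted. Of all 2416 regions, 61.1% were higher in obese pigs. No other gene locus of the tables lies on these regions, and the FASN RNA loci beside them did not differ between the groups by the test above.

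**Figure D5:**
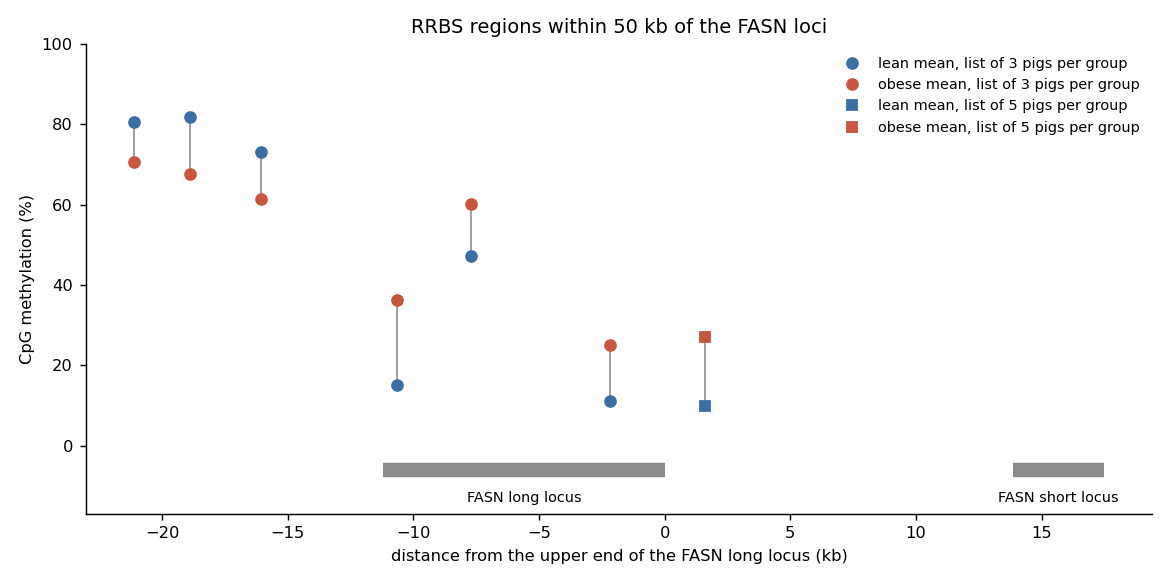
Mean CpG methylation (%) of lean (blue) and obese (red) pigs in the 7 RRBS regions near FASN, against the distance of the region from the upper end of the long locus in kb. Circles are from the list of 3 pigs per group and squares from that of 5, grey bars are the FASN loci, and the 3 leftmost regions are lower and the other 4 higher in obese pigs.

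Both loci named ADD1 had RRBS regions within 50000 bases in both lists, and the one on chromosome 8 had 3 mDNAcap regions as well. On chromosome 8 the nearest RRBS region, 8995 bases from the locus, had 17.9% methylation in lean and 29.2% in obese pigs in the list of 5 pigs per group. At the second locus, the region of the list of 5 pigs per group (GL896203.1, 7420 to 7595, 10 CpGs), 3894 bases from the locus, had 8.35% methylation in lean and 22.0% in obese pigs. That of the list of 3 pigs per group (7472 to 7642, 12 CpGs) overlaps it and had 5.59% and 23.3%. ACACA, ELOVL6, ME1, CHREBP and PNPLA3 had no region of either method within 50000 bases, which says only that none was in the deposited lists.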

How the data were processed

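For RNAseq, the authors mapped reads of stranded, ribosome-depleted RNA to Sscrofa10.2 with STAR 2.3.1 and estimated FPKM with Cufflinks 2.2.0 on Ensembl 70. The capture reads were compared by the authors in diffReps 1.55.4 with a G-test on 1000-base windows (p under 0.0001). The deposited value of a library is a normalized count and that of a group a signal, their mean. For RRBS, mapped with Bismark 0.10, the deposited methylation level is a fraction, the group mean over CpGs with at least 5 reads, here turned into percent. The authors' own fold changes, p-values and q-values were not used.

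Of 25285 gene identifiers, 9 with a failed estimate were left out. FPKM were divided by median-of-ratios size factors (0.697 to 1.21), libraries of 1 pig averaged, and compared with limma 3.58.1 (R 4.3.3, eBayes with trend, Benjamini-Hochberg) on log2(value + 1). The mDNAcap counts were compared likewise over all regions. The procedure was tested on simulated data. Exact permutation tests were two-sided, and correlations used 100000 permutations, adjusted over 55 pairs. Lists of pathway genes were named by their lowest p in each direction, regions within 5000 bases of a locus by position, and the farther ones within 50000 bases, named because they were few, after their values were seen. Likeness was to the mean standardised level of the members, for the 5 closest genes. Of the genes these rules and lists take, 2 are not reported here. Members and lists were chosen with earlier results of these data known. Coordinates are as deposited, counted from 1 for gene loci. Precision is limited by the 5 pigs per group for RNA and unknown for RRBS. Scaling, pseudocount, filter, library, trend, window and left-out-pig alternatives were tried. Python 3.11.15, scipy 1.17.1, pandas 2.3.3, numpy 2.4.6 and matplotlib 3.10.9 were used.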

Additional observations from a re-analysis of the deposited data

Results flagged for a closer look

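FASN in obese pig-433 lay far from the other obese pigs, with 2315 FPKM at the long locus and 1482 FPKM at the short one, in a test of the gap between the highest sample and its neighbour relative to the range of 5 samples (Dixon's test at 95%). The gap was 0.732 of the range at the long locus and 0.725 at the short one. This test was run on scaled FPKM, not on the log2 values used for the group comparisons. Which groups are flagged can depend on that scale, and log2 values were not tested in this way. Of the 22 groups of 5 pigs that were tested over the 11 loci, these 2 were the only ones beyond the critical value, and chance gives about 1 in 20. The 2 loci belong to 1 gene and share the pig, so they are not separate results. Without pig-433, the log2 fold change of FASN was 0.18 at the long and 0.17 at the short locus.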

How the results depend on the processing

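None of the 11 loci passed an adjusted p of 0.05 under any alternative, of which there were up to 19 per locus, and 10 of the 11 kept a higher mean in obese pigs throughout. GPAT turned to -0.0111 without size factors, -0.0167 with upper quartile scaling, -0.00809 with a pseudocount of 0.1 and -0.0155 with the second library of pig-572 alone, and lay between -0.155 and 0.0928 with each pig left out. GPAT could not be fitted with a minimum mean of 5 FPKM. The count of RNA loci past the threshold, 1, became 0 without size factors (1396 at an unadjusted p of 0.05 in limma), 5 without a filter, 5 with a minimum of 5 FPKM, 16 with the second library of pig-572 alone and 155 with its libraries as separate replicates, and 1 to 146 with each pig left out, the highest without lean pig-402. The count of mDNAcap regions past the threshold, 7118 (5109 lower, 2009 higher), became 2932 (807 lower, 2125 higher) after the median of ratios, 3195 (1101 lower, 2094 higher) after scaling by the mean read count per bin, 2058 (697 lower, 1361 higher) with a minimum mean count of 20 and 0 with the mean read count per bin as a covariate in limma, where 3660 had an unadjusted p under 0.05. That covariate was chosen after seeing the data and takes the libraries in the order of the file header. Under the median of ratios, the mean read count per bin and the covariate, the log2 fold changes were -0.52, -0.54 and -0.52 near ACLY, -0.39, -0.41 and -0.53 near ACSS2, -0.28, -0.30 and -0.40 near FASN, and -0.35, -0.37 and -0.58 in GPAT, and none passed (adjusted p = 0.07 to 0.148). The cause of these shifts was not tested. Of the 4 mDNAcap regions, 1 remained inside a locus and 1 within 10000 bases. The RRBS count of 1 became 0 inside the loci, 0 at a difference of at least 20 points and 6 with 3 pigs per group. No paired analysis was possible because each pig belongs to 1 group and the labels pair no lean with an obese pig.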
